A study of Mus musculus with 12 samples.

Results

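Mitosis and kinetochore genes were followed through 12 bulk RNA libraries of mouse tumor and liver. The set was a list of 38 genes of G2, mitosis, the kinetochore and cytokinesis, found by symbol in a table of 52636 gene identifiers. All 38 were present once each, and all 38 passed the filter on low counts in both tissues. The libraries came from dissociated tissue of female FVB/NJ mice carrying a Fo5 tumor, a piece of mammary tumor from an MMTV-HER2 transgenic founder line placed in the mammary fat pad. Tumor TDB and liver TDB are the groups given 1 intravenous dose of 5 mg/kg of the anti-HER2(4D5-2C11)/CD3 antibody, a T cell dependent bispecific antibody (TDB) with 1 arm against HER2 and 1 against CD3 of the T cell receptor complex. Tumor vehicle and liver vehicle received the same volume of buffer. Organs were taken 24 h after the dose, tumor volumes averaged 350 to 500 mm3 at the start of treatment, and each group had 3 libraries. All 4 groups came from tumor-bearing mice of the same strain, and the tumor is the line of 1 transgenic founder whose HER2 is driven by the mammary MMTV promoter.

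A dividing cell enters mitosis when cyclin B and CDK1 become active, and the kinases of the Polo and Aurora families then drive spindle assembly and chromosome alignment. The kinetochore is the protein structure on each centromere that holds the spindle microtubules, and the spindle checkpoint delays anaphase until all kinetochores are attached. Anaphase starts when the anaphase-promoting complex, with its activator Cdc20 and its ubiquitin-conjugating enzyme Ube2c, marks securin (Pttg1) and the B cyclins for destruction. Most of these genes are transcribed late in the cell cycle, from promoters that carry a cell cycle homology region (CHR) and CCAAT boxes, elements known as binding sites of the DREAM and MuvB complexes and of NF-Y. Their transcripts are therefore abundant in tissues with many cycling cells, such as a growing tumor, and scarce in the resting adult liver.

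Promoters of 31 of the 38 members were found in the RefSeq table (GRCm38.p6, 250 bases before to 50 after each annotated start). The 6 printed here belong to the members with the smallest tumor p-values among those with a promoter, and each run covers 120 bases before the start and 50 after it. Capitals mark a CHR (TTTGAA or TTCGAA on either strand, so also TTCAAA) or a CCAAT box (CCAAT, or ATTGG on the other strand). They lie on GRCm38.p6 at chr7:122159315-122159484 (Plk1, plus strand), chr4:124936868-124937037 (Cdca8, minus strand), chr2:119618178-119618347 (Nusap1, plus strand), chr2:69206164-69206333 (Spc25, minus strand), chr1:169531415-169531584 (Nuf2, minus strand) and chr2:164769809-164769978 (Ube2c, plus strand).
Plk1: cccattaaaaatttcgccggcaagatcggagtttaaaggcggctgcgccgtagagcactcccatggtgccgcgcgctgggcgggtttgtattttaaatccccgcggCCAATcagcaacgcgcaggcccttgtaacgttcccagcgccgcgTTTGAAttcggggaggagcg
Cdca8: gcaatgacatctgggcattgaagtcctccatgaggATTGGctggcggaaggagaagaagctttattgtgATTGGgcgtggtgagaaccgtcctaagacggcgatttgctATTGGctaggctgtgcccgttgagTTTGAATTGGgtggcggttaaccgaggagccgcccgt
Nusap1: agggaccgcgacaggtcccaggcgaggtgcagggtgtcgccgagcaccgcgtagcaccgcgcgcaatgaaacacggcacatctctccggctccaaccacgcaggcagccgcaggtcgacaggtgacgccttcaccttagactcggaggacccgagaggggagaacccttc
Spc25: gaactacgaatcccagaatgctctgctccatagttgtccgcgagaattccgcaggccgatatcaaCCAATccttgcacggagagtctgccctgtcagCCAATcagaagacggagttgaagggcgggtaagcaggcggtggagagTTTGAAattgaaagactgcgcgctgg
Nuf2: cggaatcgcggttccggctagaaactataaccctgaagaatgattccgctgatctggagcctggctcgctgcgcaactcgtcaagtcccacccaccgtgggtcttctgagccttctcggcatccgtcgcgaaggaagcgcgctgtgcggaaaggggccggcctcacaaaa
Ube2c: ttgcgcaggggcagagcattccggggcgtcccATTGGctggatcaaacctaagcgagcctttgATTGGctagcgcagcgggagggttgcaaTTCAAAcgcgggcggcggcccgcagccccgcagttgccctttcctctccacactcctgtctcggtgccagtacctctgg
In Plk1 and Spc25 a CCAAT box lies upstream of the start and the CHR downstream of it, while in Ube2c both lie upstream and on the opposite strand. In Cdca8 the last base of the CHR is the first base of an inverted CCAAT box. Nusap1 and Nuf2 hold neither set of letters in this window.

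A CHR was found in 24 of the 31 member promoters (77.4%), against 19.4% of all 27025 promoters of the same length. A CCAAT box was found in 23 member promoters (74.2%), against 37.9% of all. Both occurred together in 21 member promoters (67.7%), against 7.7% of all. A CHR within 30 bases before to 50 bases after the start was present in 22 member promoters (71.0%), against 4.1% of all. The member promoters held 33 CHR matches, 23 of them within that stretch, and 58 CCAAT matches, 42 of them in the 120 bases before the start. Both elements were sought in the same windows, and in Cdca8 they overlap by 1 base. An E2F site (TTTCCCGC, TTTCGCGC, TTTGCCGC or TTTGGCGC on either strand) was found in 1 member promoter, that of Cdk1 (3.23%), against 2.32% of all. No match was found for CHR or CCAAT in 5 member promoters, which were those of Birc5, Mad2l1, Nuf2, Nusap1 and Pttg1.

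**Figure D1:**
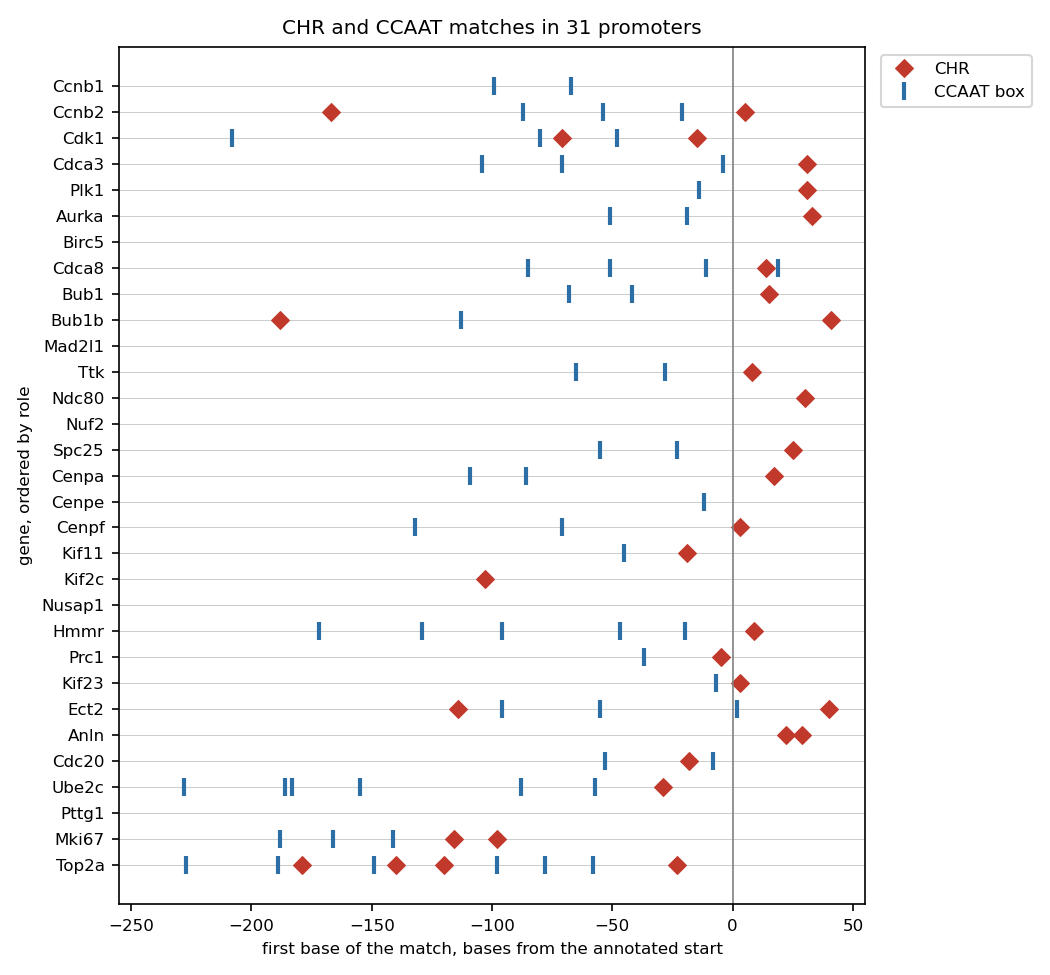
Position of CHR matches (red diamonds) and CCAAT boxes (blue bars) in 31 member promoters, one row per gene in order of role, with the horizontal axis in bases from the annotated start (grey line at 0). The CHR matches gather around and just after the start, with 23 of 33 from 30 bases before it on, and the CCAAT boxes lie mostly in the 120 bases before it.

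Depth was 18460159 to 29396324 counts per library. The tissues matched their labels by the marker genes used here. The epithelial gene Epcam stood at 1200 ± 106 CPM in TDB tumors and 1210 ± 117 CPM in vehicle tumors, and the hepatocyte gene Alb at 85500 ± 9450 CPM in TDB livers and 127000 ± 15600 CPM in vehicle livers (SD, n = 3). CPM are counts scaled to library size, with TMM factors computed within each tissue. By the design text each treatment had 3 mice, and p-values accordingly measure the spread from mouse to mouse. The labels do not say whether a library number stands for the same mouse in both tissues.

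In the tumor, the mitosis genes were lower with the antibody almost throughout. The edgeR quasi-likelihood test, adjusted over all 15454 genes tested, called 35 of 38 members lower and 0 higher (0 also by DESeq2, by limma-voom and at an unadjusted p under 0.05), where 13.1% of all genes were called lower and 15.8% higher. At an unadjusted p under 0.05, 37 members were lower, where 20.1% of all genes were. Of the members called lower, 24 had an estimated log2 fold change under -1, against 2.87% of all genes. The test was against no change, so a fall of that size was not itself tested. The median log2 fold change of the 38 members was -1.11, against -0.02 over all genes, and it ran between -1.39 for Spc25 and -0.31 for Cenpe. The summed level of the 38 members was 1229, 907 and 1410 CPM in TDB tumors, against 2287, 2442 and 2140 CPM in vehicle tumors. No TDB tumor reached the lowest vehicle tumor in that sum. In bulk tissue, fewer dividing cells and less of these RNAs per cell cannot be told apart. The groups did not overlap for 37 of the 38 members, against 23.1% of all genes in that direction, and Cenpe was the exception.

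**Figure D2:**
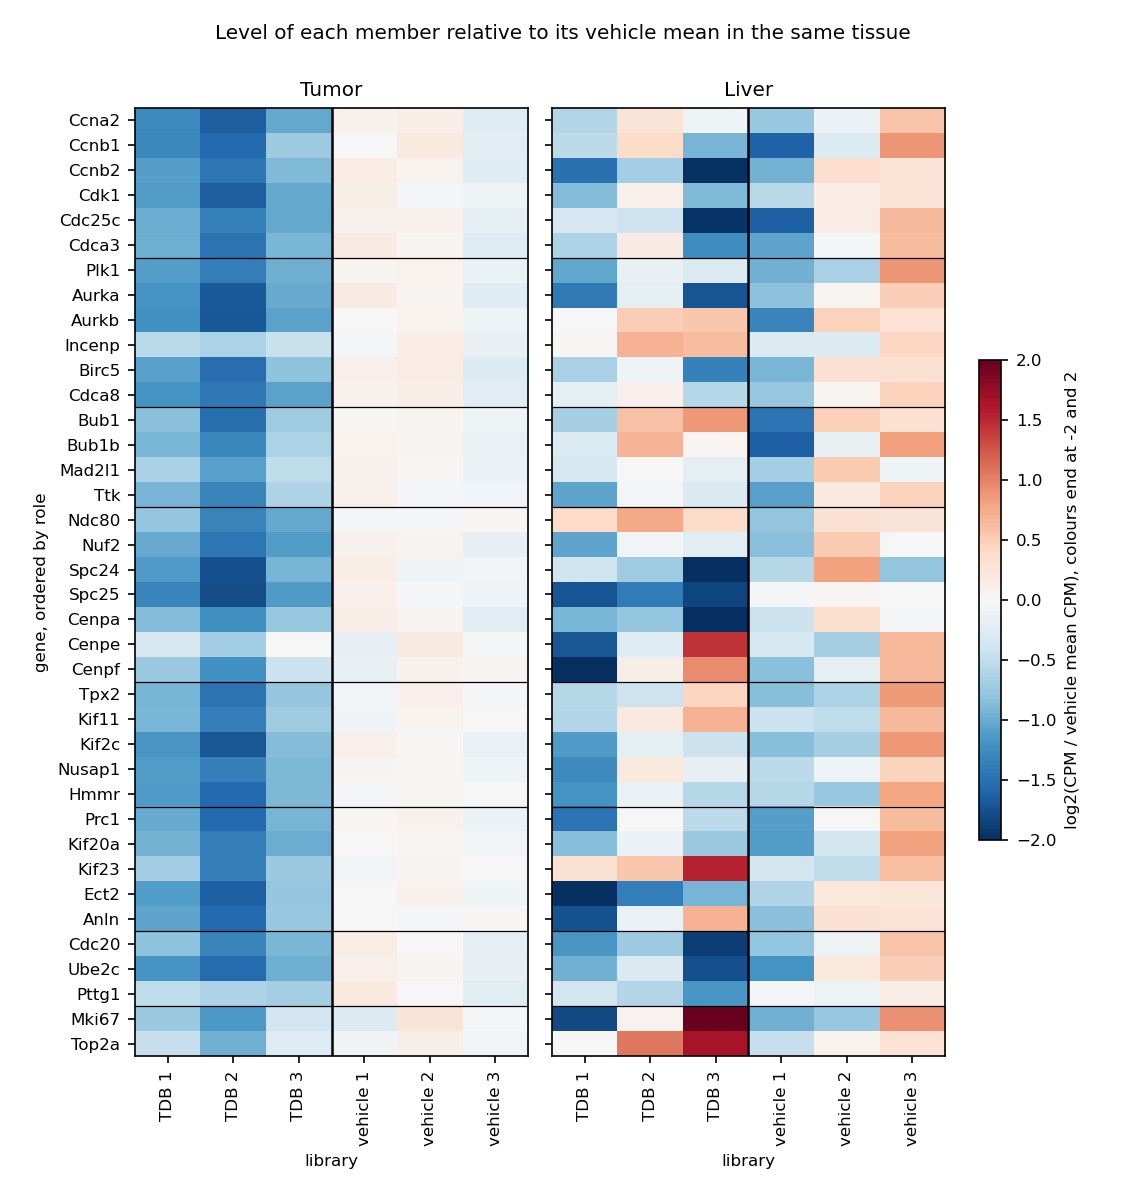
Level of each of the 38 members in each library, as log2 of its CPM over the mean vehicle CPM of the same tissue (blue lower, red higher, colours end at -2 and 2), with tumor left and liver right, and TDB libraries left of vehicle libraries. The tumor TDB columns are blue for nearly all genes and darkest in library 2, whereas the liver columns differ between libraries of the same group.

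Among the 6 genes of mitotic entry, all 6 fell in the tumor, with a median log2 fold change of -1.14. Ccna2 encodes cyclin A2, which acts from S phase to early mitosis, and had the highest level per transcript length of all members in vehicle tumors (31.7 RPKM). It stood at 53.4, 41.1 and 63.6 CPM in TDB tumors, against 137, 142 and 109 CPM in vehicle tumors. The highest TDB tumor was well below the lowest vehicle tumor, and the log2 fold change was -1.30 ± 0.17 (SE, edgeR adjusted p = 0.00166). Cdca3, a trigger of mitotic entry through degradation of the inhibitory kinase Wee1, showed the smallest fall of this group. Its levels were 22.6, 15.9 and 23.6 CPM in TDB tumors, against 49.7, 45.9 and 37.1 CPM in vehicle tumors (log2 fold change -1.10 ± 0.17, edgeR adjusted p = 0.00246). The catalytic partner Cdk1 averaged 48.7 ± 10.8 CPM in TDB tumors and 115 ± 8.49 CPM in vehicle tumors (SD, n = 3). The B cyclins Ccnb1 and Ccnb2 and the activating phosphatase Cdc25c lay between these, at log2 fold changes of -1.15, -1.13 and -1.12. This group therefore spanned a narrow range of -1.30 to -1.10.

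The mitotic kinases and the chromosomal passenger complex fell in 6 of 6 members, with a median log2 fold change of -1.19. Aurkb, the kinase of the passenger complex, which corrects wrong attachments at the centromere, stood at 18.3, 13.0 and 20.2 CPM in TDB tumors, against 42.7, 44.5 and 39.8 CPM in vehicle tumors. Its log2 fold change was -1.30 ± 0.15 (edgeR adjusted p = 0.000424), and no value of a TDB tumor came near a vehicle value. Incenp, the scaffold of the same complex, stood at 16.8, 15.8 and 18 CPM in TDB tumors, against 24.0, 27.0 and 22.1 CPM in vehicle tumors. The groups were apart here too, but the log2 fold change was -0.53 ± 0.10 (edgeR adjusted p = 0.00545). The other subunits, Birc5 (survivin) and Cdca8 (borealin), had log2 fold changes of -1.12 ± 0.19 and -1.23 ± 0.13. The fold change of the scaffold was the smallest of these 4, and the differences between them were not tested. Plk1, the Polo kinase of mitotic entry and spindle assembly, had the smallest p-value of all members in tumor. It stood at 21.3, 17.4 and 23.1 CPM in TDB tumors, against 47.4, 47.7 and 41.7 CPM in vehicle tumors (log2 fold change -1.15 ± 0.12, edgeR adjusted p = 0.000138). Aurka, the spindle pole kinase, had a log2 fold change of -1.27 ± 0.18.

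All 4 spindle checkpoint genes fell, with a median log2 fold change of -0.93. Bub1, a kinase that recruits checkpoint proteins to the kinetochore, stood at 20.3, 12.7 and 22.1 CPM in TDB tumors, against 36.6, 37.8 and 34.2 CPM in vehicle tumors. Library 2 was far below the other TDB tumors, and the log2 fold change was -0.99 ± 0.19 (edgeR adjusted p = 0.00713). Mad2l1, which binds and inhibits Cdc20, stood at 26.0, 19.2 and 28.6 CPM in TDB tumors, against 43.1, 41.5 and 37.7 CPM in vehicle tumors. Its fall was the smallest of the checkpoint genes, at a log2 fold change of -0.73 ± 0.14 (edgeR adjusted p = 0.00529). Bub1b (BubR1, part of the inhibitor of Cdc20) and Ttk (the Mps1 kinase) both had a log2 fold change of -0.93.

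Of the 7 kinetochore and centromere genes, 6 fell and Cenpe did not pass the test. The Ndc80 complex, the microtubule-binding unit of the kinetochore, has 4 subunits, and all 4 fell. Spc25 (ENSMUSG00000005233, GRCm38 chr2:69193895-69206194, minus strand) had the largest fall of the 38 members, with 15.7, 11.4 and 17.8 CPM in TDB tumors, against 41.9, 38.2 and 37.0 CPM in vehicle tumors. The TDB tumors kept 38.2% of the vehicle level, and the log2 fold change was -1.39 ± 0.15 (edgeR adjusted p = 0.000306). Its partners Spc24, Nuf2 and Ndc80 had log2 fold changes of -1.24 ± 0.19, -1.18 ± 0.14 and -1.03 ± 0.15. Cenpa, the histone H3 variant that marks the centromere, had a log2 fold change of -0.94 ± 0.14. Cenpf, a large protein of the outer kinetochore, had the smallest called fall of the group, with 43.6, 31.7 and 54.2 CPM in TDB tumors, against 66.4, 77.5 and 75.7 CPM in vehicle tumors. The groups were apart (log2 fold change -0.76 ± 0.18, edgeR adjusted p = 0.0198), but the call held in 11 of 16 alternatives. It ended with no filter on low counts (adjusted p = 0.067), in a fit of all 12 libraries (0.28), without TDB tumor 1 (0.0618), without vehicle tumor 2 (0.0566) and without vehicle tumor 3 (0.0572).

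All 5 genes of spindle assembly and motors fell, with a median log2 fold change of -1.12. Kif2c (MCAK), a kinesin that takes microtubule ends apart at the centromere, stood at 13.7, 9.36 and 16.7 CPM in TDB tumors, against 32.7, 31.2 and 27.9 CPM in vehicle tumors. Its log2 fold change was -1.21 ± 0.19 (edgeR adjusted p = 0.00266), with every vehicle tumor above every TDB tumor. Kif11 (Eg5), the motor that pushes the spindle poles apart, stood at 19.5, 14.2 and 22.5 CPM in TDB tumors, against 34.9, 38.5 and 36.7 CPM in vehicle tumors. It had the smallest fall of this group, at a log2 fold change of -0.98 ± 0.15 (edgeR adjusted p = 0.00206). Tpx2, which activates Aurka on spindle microtubules, and the microtubule-binding proteins Hmmr and Nusap1 had log2 fold changes of -1.03 ± 0.17, -1.17 ± 0.15 and -1.12 ± 0.12.

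All 5 genes of the central spindle and cytokinesis fell, with a median log2 fold change of -1.10. Prc1, which bundles the antiparallel microtubules of the central spindle, stood at 33.6, 23.1 and 35.5 CPM in TDB tumors, against 69.2, 71.6 and 62.2 CPM in vehicle tumors. The log2 fold change was -1.14 ± 0.16 (edgeR adjusted p = 0.00129). Kif23 (MKLP1), the motor of the centralspindlin complex, stood at 19.3, 12.1 and 18.5 CPM in TDB tumors, against 30, 32.4 and 31.1 CPM in vehicle tumors. The vehicle tumors lay close together and above all TDB tumors (log2 fold change -0.91 ± 0.16, edgeR adjusted p = 0.00412). Ect2, which activates RhoA at the cell equator, Anln (anillin), the scaffold of the contractile ring, and the kinesin Kif20a had log2 fold changes of -1.13 ± 0.20, -1.09 ± 0.18 and -1.10 ± 0.11. Of the exonic length of Kif20a, 29.3% lies over exons of Cdc23 on the opposite strand.

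The 3 genes of anaphase promotion fell as well. Ube2c stood at 33.9, 26.5 and 39.0 CPM in TDB tumors, against 82.7, 80.3 and 68.5 CPM in vehicle tumors (log2 fold change -1.22 ± 0.14, edgeR adjusted p = 0.000516). Cdc20 averaged 28.4 ± 5.11 CPM in TDB tumors and 56.3 ± 6.24 CPM in vehicle tumors (SD, n = 3), a log2 fold change of -0.99. Pttg1 had the smallest fall of these, at 16.9 ± 0.986 CPM in TDB tumors and 25.5 ± 3.76 CPM in vehicle tumors (log2 fold change -0.59 ± 0.12). It was also the member whose lowest TDB value was in library 3, where the other 37 members had theirs in library 2.

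The 2 genes of chromosome structure and Cenpe did not pass the test in tumor. Mki67 (ENSMUSG00000031004) encodes the Ki-67 antigen, the histological marker of cycling cells, which coats mitotic chromosomes. It stood at 181, 137 and 233 CPM in TDB tumors, against 250, 363 and 298 CPM in vehicle tumors. The highest TDB tumor lay just below the lowest vehicle tumor, and the log2 fold change was -0.72 ± 0.22 (edgeR adjusted p = 0.0505). Top2a (ENSMUSG00000020914), the topoisomerase that untangles sister chromatids, stood at 143, 101 and 164 CPM in TDB tumors, against 187, 213 and 190 CPM in vehicle tumors. Its groups did not overlap either, and the log2 fold change was -0.53 ± 0.17 (edgeR adjusted p = 0.0517). Cenpe (ENSMUSG00000045328), the kinesin that carries chromosomes to the spindle equator, stood at 39.8, 30.7 and 49.5 CPM in TDB tumors, against 44.1, 56.1 and 48.3 CPM in vehicle tumors. TDB library 3 lay above vehicle libraries 1 and 3 (log2 fold change -0.31 ± 0.18, edgeR adjusted p = 0.232). Mki67 passed the threshold in 7 of 16 alternatives, Top2a in 8, and Cenpe in 1, without TDB tumor 3 (adjusted p = 0.0439). All 3 fold changes were negative in all 16 alternatives, as were those of the other 35 members.

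**Figure D3:**
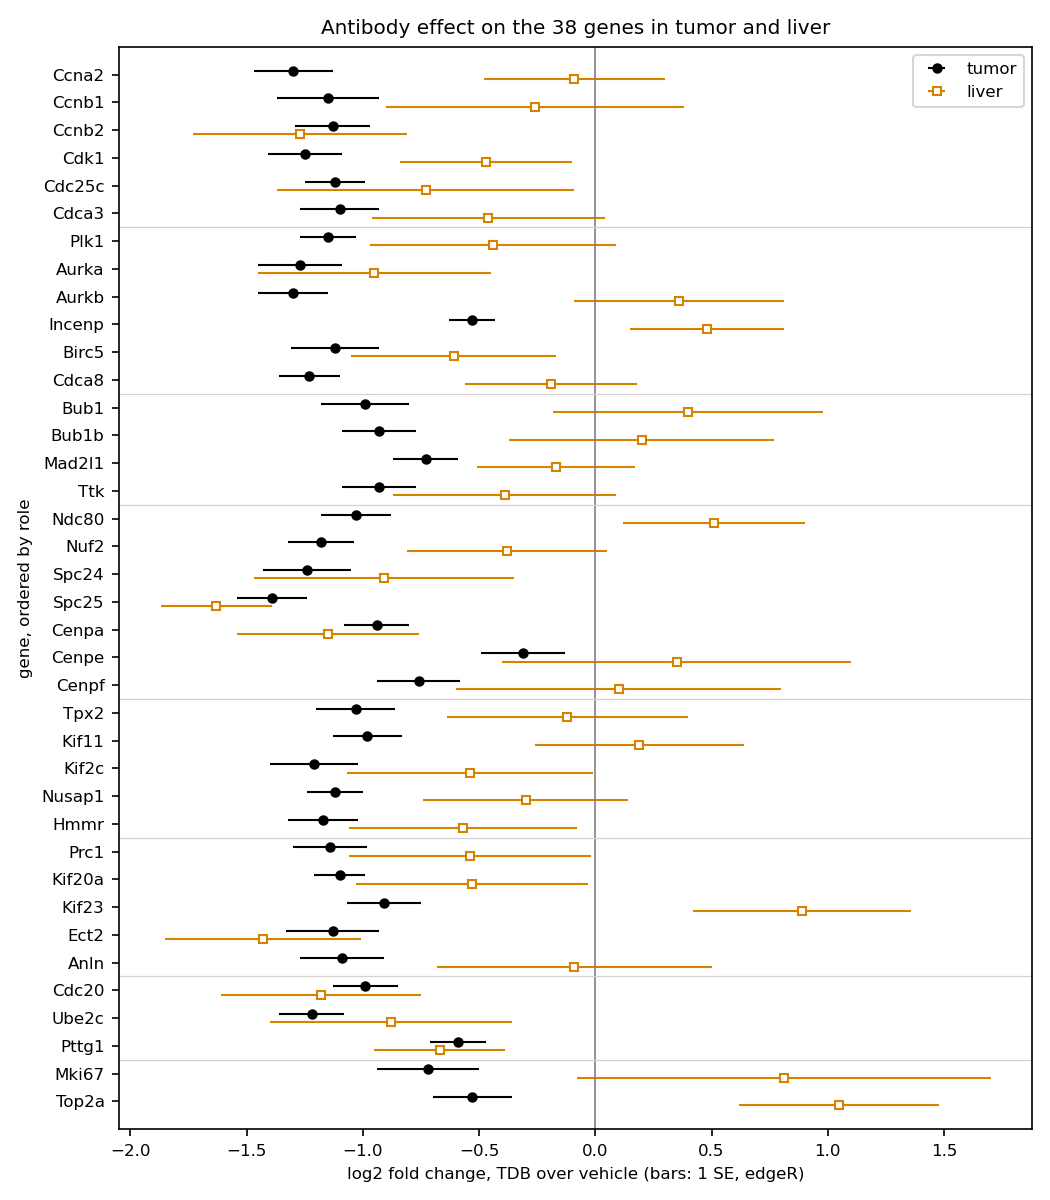
Log2 fold change of TDB over vehicle with 1 SE from edgeR, for the 38 members in order of role, in tumor (filled circles) and liver (open squares). The tumor values run between -1.39 (Spc25) and -0.31 (Cenpe), and the liver values spread around 0 between -1.63 (Spc25) and 1.05 (Top2a) with wider bars.

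The size of the fall differed between the TDB tumors in the same direction for nearly all members. TDB library 2 was the lowest of its group for 37 of 38 members, and library 3 the highest for 31. The median coefficient of variation of the members was 22.1% among TDB tumors and 7.84% among vehicle tumors. A fit of all 12 libraries with 1 common spread called 18 members lower in the tumor in place of 35. In that fit the common biological coefficient of variation was 24.6%, against 13% for the tumor libraries alone.

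Levels per length in vehicle tumors ran between 2.51 RPKM for Ccnb1 and 31.7 RPKM for Ccna2, with a median of 10.8 RPKM (CPM divided by exonic length in kilobases). The members with and without a CHR had nearly the same median tumor log2 fold change, at -1.10 over 24 members and -1.12 over 7. The distributions were not compared by a test. The values ran between -1.39 (Spc25) and -0.53 (Top2a) with a CHR, and between -1.18 (Nuf2) and -0.31 (Cenpe) without. The 5 members with neither element were Nuf2 at -1.18, Nusap1 and Birc5 at -1.12, Mad2l1 at -0.73 and Pttg1 at -0.59. The promoters printed above were chosen by their tumor p-values, so the fold changes of those 6 genes are no comparison of promoters.

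In the tumor, genes outside the 38 in 7 lists of the same pathways were called lower in 88 cases and higher in 6, of 138 tested by edgeR, where 13.1% of all genes were lower and 15.8% higher. DESeq2 called 86 lower and 6 higher, and limma-voom 87 and 6. Where 0 genes of a list were called higher below, DESeq2 and limma-voom called 0 as well, as did an unadjusted p under 0.05. Of 34 other kinetochore and centromere genes, 29 were called lower and 0 higher, with a median log2 fold change of -0.83. Cenpp, a subunit of the inner kinetochore, and Ska1, which couples kinetochores to microtubules, had the largest falls there, at log2 fold changes of -1.29 ± 0.16 and -1.22 ± 0.19. Of 24 other spindle and cytokinesis genes, 22 were lower and 1 higher, with a median of -0.97. Fam83d, which brings casein kinase to the spindle, and the motor Kifc1 led the falls at -1.49 ± 0.18 and -1.34 ± 0.22, and the spindle pole protein Numa1 was the gene called higher, at 0.28 ± 0.07 (edgeR adjusted p = 0.0192). Of 13 tested genes among 14 other mitotic kinases and entry regulators, 11 were lower and 0 higher, with a median of -0.87. The kinases Pbk and Melk led these at -1.44 ± 0.24 and -1.15 ± 0.16.

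Condensin, cohesin and separase genes, which shape and hold chromosomes, fell in 11 of 18 and were higher in 0, with a median of -0.39. Ncapg, a condensin subunit, and Cdca5 (sororin), which protects cohesin, led these at -1.13 ± 0.15 and -0.84 ± 0.19. Of 16 tested genes of the anaphase-promoting complex and its regulators, 5 were lower and 0 higher, with a median of -0.21. The inhibitor Fbxo5 (Emi1) had a log2 fold change of -1.08 ± 0.20, and the activator Fzr1 (Cdh1) of -0.31 ± 0.08. Among 19 genes of DREAM and cell cycle transcription, 8 were lower and 2 higher, with a median of -0.25. The repressors E2f7 and E2f8, themselves cell cycle regulated, were lower at -1.10 ± 0.29 and -0.96 ± 0.18, while the pocket proteins Rb1 and Rbl1 were higher at 0.53 ± 0.12 and 0.42 ± 0.09. Of 14 cell cycle inhibitors, 2 were lower and 3 higher, with a median of 0.01, shares near those of all tumor genes. Cdkn2d and Cdkn2c, inhibitors of CDK4 and CDK6, were lower at -0.66 ± 0.13 and -0.51 ± 0.09, and the stress genes Gadd45g and Gadd45b were higher at 1.11 ± 0.21 and 0.67 ± 0.16.

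Summed markers of T cells, NK cells, macrophages and neutrophils were higher in TDB tumors. The sums of epithelial, endothelial and fibroblast markers overlapped between the tumor groups. The summed level of 10 T cell markers was 17.59 to 29.23 CPM in TDB tumors and 2.981 to 5.725 CPM in vehicle tumors, with 9 of 10 genes called higher, and Cd3e was at 0 in the vehicle tumors. The 5 NK cell markers summed to 14.22 to 21.03 CPM in TDB tumors and 0.2258 to 0.4122 CPM in vehicle tumors, and 4 of the 4 tested were called higher. The 8 monocyte and macrophage markers summed to 1289 to 1579 CPM in TDB tumors and 352.5 to 459.9 CPM in vehicle tumors, with 5 called higher. Without Cd14, the most abundant of them in TDB tumors, the other 7 summed to 306.0 to 446.1 CPM in TDB tumors and 166.9 to 267.2 CPM in vehicle tumors, and the ratio of the group means was 1.69 in place of 3.55. The 6 neutrophil markers summed to 38.94 to 75.84 CPM in TDB tumors and 4.652 to 11.47 CPM in vehicle tumors. Most of the TDB sum was S100a8, at a mean of 38.4 ± 20.5 CPM (SD, n = 3). Of the 4 tested, S100a8, Csf3r and Cxcr2 were called higher, and S100a9 was not, at 2.66 and 1.14 CPM (edgeR adjusted p = 0.166). The 8 mammary epithelium markers summed to 25030 to 26060 CPM in TDB tumors and 21310 to 25040 CPM in vehicle tumors. The casein gene Csn3 made up most of that sum, and without it the sums were 3400 to 3782 CPM in TDB tumors and 3609 to 4189 CPM in vehicle tumors, so that the ratio of the group means was 0.916 in place of 1.07. Both sums without a leading gene were chosen after seeing the data. Of the 7 of these tested, 2 were called lower, Erbb2 at a log2 fold change of -0.58 ± 0.08 and Krt8 at -0.27 ± 0.09, and their median was -0.16. Whether reads of the human HER2 transgene were counted as Erbb2 is not given in the sources used here. Endothelial markers summed to 112.8 to 175.1 CPM in TDB tumors and 136.8 to 217.2 CPM in vehicle tumors. Of these 7 genes 3 were called lower, Kdr at a log2 fold change of -0.94 ± 0.16, Emcn at -0.92 ± 0.22 and Esam at -0.65 ± 0.14. Fibroblast and pericyte markers summed to 660 to 1542 CPM in TDB tumors and 722.5 to 2133 CPM in vehicle tumors. Of these 8 genes 1 was called lower, the pericyte gene Rgs5 at -1.32 ± 0.15 (edgeR adjusted p = 0.000427). Over all genes tested in tumor, 13.1% were called lower and 15.8% higher, so 1 of 8 is near the share of all genes. The part of these cells in the fall of the mitosis genes was not tested.

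In the liver, 1 member passed the test. Spc25 stood at 4.26, 5.35 and 3.97 CPM in TDB livers, against 13.7, 14.5 and 14.0 CPM in vehicle livers. The vehicle livers differed little from each other and lay well above all TDB livers, at a log2 fold change of -1.63 ± 0.24 (edgeR adjusted p = 0.042). The other 37 members were not called. The background was 0.022% of 13657 genes called lower and 0.513% called higher, and 0 members were called higher (also 0 by DESeq2 and limma-voom, and 1 at an unadjusted p under 0.05). The Spc25 call held in 10 of 16 alternatives. It ended with scaling by library totals (adjusted p = 0.0506), without TDB liver 1 (0.0794), without TDB liver 2 (0.181), and without vehicle liver 1, 2 or 3 (0.254, 0.178 and 0.237).

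The members' levels were low and scattered in liver. They had 4 to 399 counts per liver library, against 92 to 8028 per tumor library. The median coefficient of variation was 42.0% among TDB livers and 46.2% among vehicle livers. Levels per length in vehicle livers ran between 0.0701 RPKM for Cenpf and 6.24 RPKM for Cdc20, with a median of 0.719 RPKM. Vehicle tumor over vehicle liver, the CPM ratio of the members had a median of 15.3, with the lowest at 2.28 for Spc24 and the highest at 97.2 for Mki67. These values use scaling within each tissue. With TMM factors computed over all 12 libraries, an alternative chosen after seeing the data, the median was 6.61, Mki67 stood at 42.0, and Spc24 turned to 0.989. The ratios were not tested. The summed level of the 38 members was 106.6, 166.0 and 137.8 CPM in TDB livers, against 120.2, 201.5 and 239.1 CPM in vehicle livers, and the groups overlapped.

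The liver fold changes pointed both ways. The median over the 38 members was -0.38, against 0.04 over all genes, with 27 negative and 11 positive values. At an unadjusted p under 0.05, 6 members were lower, where 2.25% of all genes were, and 1 was higher, where 5.84% were. The 6 were Spc25, Ect2, Cenpa, Ccnb2, Cdc20 and Pttg1, and the other was Top2a. Ect2 had the second smallest p-value, with 1.41, 2.68 and 3.66 CPM in TDB livers, against 4.57, 8.06 and 8.25 CPM in vehicle livers. Its log2 fold change was -1.43 ± 0.42 (edgeR adjusted p = 0.321), and it passed the threshold with DESeq2 (0.0372), in the fit of all 12 libraries (0.0476) and with the replicate number as a block. Cenpa stood at 9.37, 10.4 and 4.06 CPM in TDB livers, against 13.2, 22.2 and 17.5 CPM in vehicle livers (log2 fold change -1.15 ± 0.39, edgeR adjusted p = 0.436). Every TDB liver was below every vehicle liver for 4 members, Spc25, Ect2, Cenpa and Pttg1, against 5.46% of all genes. The reverse held for 1 member, Ndc80, against 9.11% of all genes.

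**Figure D4:**
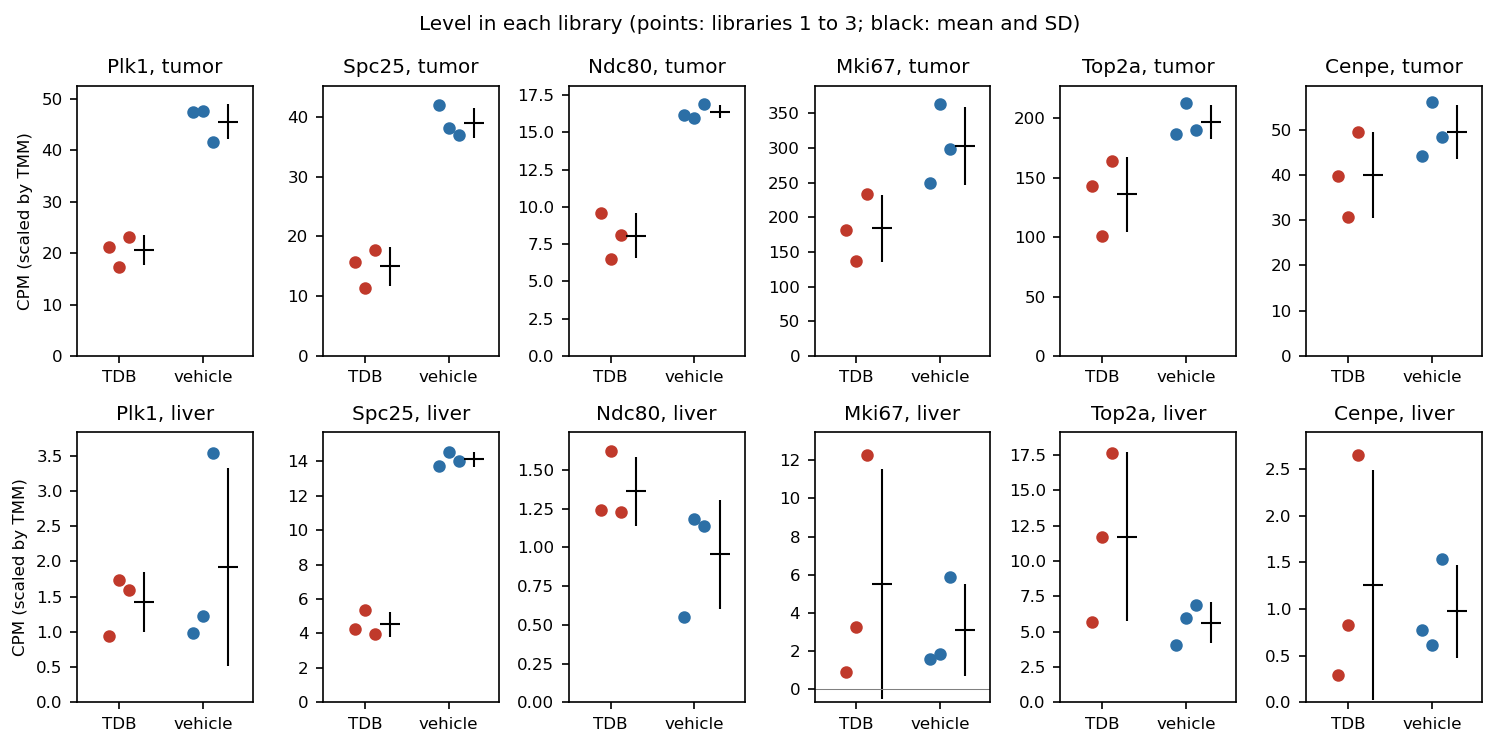
CPM in each library for 6 members, with tumor in the upper row and liver in the lower row, TDB points (red) left of vehicle points (blue) in each panel, and black marks for mean and SD (n = 3). Spc25 separates the groups in both tissues, Ndc80 separates them in opposite directions, and TDB library 3 is the highest liver library for Mki67, Top2a and Cenpe. The SD of Mki67 in TDB livers is larger than its mean.

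Single liver libraries carried much of this spread. Vehicle liver 1 was the lowest of its group for 31 members, and vehicle liver 3 the highest for 27. Without vehicle liver 3 the median log2 fold change of the members was 0.08 in place of -0.38, and without vehicle liver 1 it was -0.68. Mki67 stood at 0.894, 3.28 and 12.3 CPM in TDB livers, against 1.6, 1.85 and 5.91 CPM in vehicle livers. Its log2 fold change was 0.81 ± 0.89 with TDB liver 3 and -0.57 without it, and neither passed the test (edgeR adjusted p = 0.843 and 0.866). Top2a stood at 5.66, 11.7 and 17.6 CPM in TDB livers, against 4.08, 5.93 and 6.91 CPM in vehicle livers (log2 fold change 1.05 ± 0.43, edgeR adjusted p = 0.584). TDB liver 1 lay within the vehicle range there.

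Exonic length moved with these liver values. Over the 38 members, Spearman's correlation of the log2 fold change with exonic length was 0.53 in liver and 0.44 in tumor. The points of a tissue share the same 6 libraries, so these are descriptions across genes. Without TDB liver 3 the liver value was 0.11, and over the other single libraries left out it ran between 0.46 and 0.57. In the tumor it stayed between 0.32 and 0.52 with any library left out. The deviation of TDB liver 3 from its group mean correlated with length at 0.62 over the members and 0.63 over 13649 genes, so the genes at large showed it too. Other libraries deviated with length as well. Over the members these correlations ran between -0.60 (TDB liver 1) and 0.20 in the other 5 liver libraries, and between -0.70 (vehicle tumor 1) and 0.63 (vehicle tumor 3) in the tumor libraries. Over all genes they ran between -0.59 and 0.46 in the other liver libraries and between -0.30 and 0.15 in the tumor libraries. Members up to the median length of 4520 bp had a median liver log2 fold change of -0.53, against -0.17 for longer members, and without TDB liver 3 the values were -0.43 and -0.45. In the tumor the medians were -1.13 for the shorter and -1.03 for the longer members, and all were negative in both. The 3 members that missed the tumor threshold were among the longer ones, with exonic lengths of 10061 bp for Mki67, 9013 bp for Top2a and 8620 bp for Cenpe. Other long members were called lower, such as Cenpf (15433 bp, log2 fold change -0.76) and Anln (9063 bp, -1.09). The part of length in these fold changes was not tested.

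**Figure D5:**
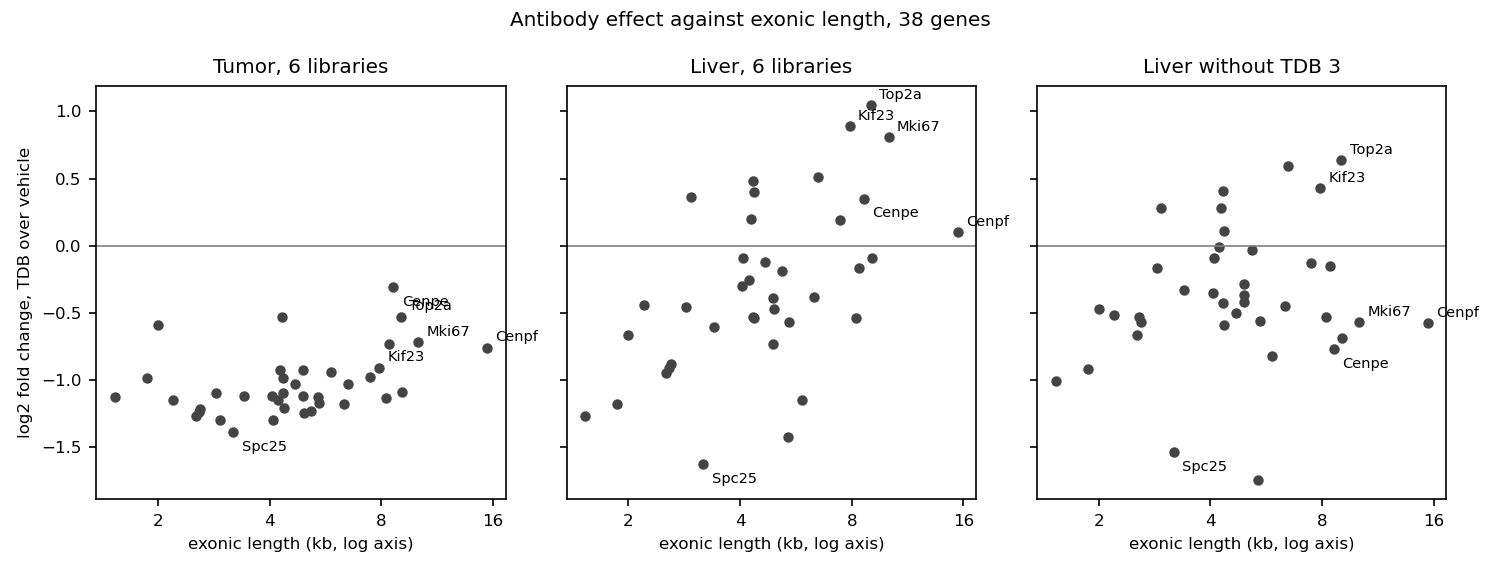
Log2 fold change of TDB over vehicle against exonic length in kilobases (log axis) for the 38 members, in tumor, in liver, and in liver without TDB library 3. The liver values climb with length (Spearman 0.53) and no longer do so without that library (0.11), and the tumor values stay below 0 at all lengths.

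Marker sums of the liver groups overlapped for erythroid cells, whose precursors divide, and for endothelial cells, fibroblasts, macrophages and neutrophils. They did not overlap for hepatocyte, T cell, NK cell, B cell and epithelial markers. Erythroid markers summed to 115.2 to 349.3 CPM in TDB livers and 180.5 to 874.9 CPM in vehicle livers. Hepatocyte markers summed to 101300 to 126700 CPM in TDB livers and 149700 to 180000 CPM in vehicle livers, with 0 of 8 called by edgeR, DESeq2 or limma-voom and 2 lower at an unadjusted p under 0.05. T cell markers summed to 27.64 to 34.39 CPM in TDB livers and 12.43 to 14.61 CPM in vehicle livers, with Cd8a called higher (edgeR adjusted p = 0.0426). Of these 10 genes DESeq2 called 3 higher and limma-voom 0. At an unadjusted p under 0.05 there were 8 higher, where 5.84% of all genes were. NK cell markers summed to 6.481 to 11.91 CPM in TDB livers and 2.137 to 5.597 CPM in vehicle livers. Klrk1 made up most of these sums, at means of 7.32 CPM in TDB livers and 2.56 CPM in vehicle livers. Ncr1 averaged 0.823 CPM in TDB livers and 0.74 CPM in vehicle livers, Klrb1c 0.567 and 0.429 CPM, and Eomes 0.22 and 0.139 CPM. B cell markers summed to 4.26 to 6.047 CPM in TDB livers and 6.461 to 6.716 CPM in vehicle livers. The epithelial markers, of which the liver also expresses keratins, summed to 412.3 to 596 CPM in TDB livers and 249.8 to 332.9 CPM in vehicle livers. No gene of these 3 lists was called in liver by edgeR, DESeq2 or limma-voom, and at an unadjusted p under 0.05 there was 1 NK cell and 1 epithelial gene higher. Of 131 genes tested in liver from the 7 pathway lists outside the members, edgeR and limma-voom called 0. DESeq2 called 1 higher, the stress gene Gadd45g, and at an unadjusted p under 0.05 there were 3 lower and 6 higher. The part of these cells in the liver values was not tested.

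The antibody effect was then compared between tissues in an edgeR interaction test over the 12 libraries. Tumor and liver came from the same 3 animals of a treatment by the design text, whereas this test treated the libraries as independent. It fitted 1 spread per gene over both tissues, whose biological coefficients of variation were 13% in tumor and 32.3% in liver. It also scaled the 12 libraries together, so its differences can depart from those between the separate fits. It called 1 member, Ndc80 (ENSMUSG00000024056, GRCm38 chr17:71496100-71526857, minus strand), with a more negative effect in tumor than in liver, where 0.658% of 16557 genes were called in that direction and 1.83% in the other. Ndc80 stood at 9.57, 6.53 and 8.11 CPM in TDB tumors, against 16.2, 16 and 16.9 CPM in vehicle tumors. In the liver it stood at 1.24, 1.62 and 1.23 CPM in TDB livers, against 0.551, 1.18 and 1.14 CPM in vehicle livers. The tumor groups and the liver groups were each apart, in opposite directions. The difference of the log2 fold changes, tumor minus liver, was -1.58 ± 0.37 (edgeR adjusted p = 0.0453), and the liver effect by itself did not pass the test (0.51 ± 0.39, edgeR adjusted p = 0.808). This call held in 7 of 21 alternatives. It ended with median-of-ratios and upper quartile scaling (adjusted p = 0.0563 and 0.0582), and without any 1 of the 6 tumor libraries, TDB liver 1 or 2, or any vehicle liver (0.0507 to 0.135), and with the replicate number as a block.

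The difference was negative for 32 members and positive for 6, with a median of -0.73 against -0.12 over all genes. At an unadjusted p under 0.05, 9 members were more negative in tumor, where 6.82% of all genes were, and 0 were more positive (0 past the adjusted threshold also by DESeq2 and limma-voom). The largest differences were those of Kif23 at -1.83 ± 0.48, Aurkb at -1.71 ± 0.47 and Top2a at -1.62 ± 0.47, none past the threshold (edgeR adjusted p = 0.0827, 0.0981 and 0.122). In the liver these 3 had positive log2 fold changes of 0.89, 0.36 and 1.05, none of them called, and that of Aurkb turned to -0.02 in 1 of 16 alternatives. The smallest differences were those of Pttg1 at 0.03 ± 0.29, Ccnb2 at 0.09 ± 0.49 and Cdc20 at 0.14 ± 0.47, and their signs turned under other scalings or with a library left out. These genes had liver log2 fold changes of -0.67, -1.27 and -1.18, close to their tumor values of -0.59, -1.13 and -0.99. Spc25, the member called in each tissue, differed by 0.20 ± 0.26. For the other 37 members edgeR detected no difference between tissues at this depth and spread, which does not show that the effects were equal. DESeq2 called 5 members more negative in tumor, which were Ndc80 (adjusted p = 0.00193), Kif23 (0.014), Aurkb (0.0209), Top2a (0.0411) and Incenp (0.0494).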

How the data were processed

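Bulk RNA of tumor and liver was measured in 12 libraries, grouped by the tissue and treatment in their titles. The deposited count table holds whole-number gene counts, not normalized. GSNAP, limma and GRCm38 are named without role or version, per the submitters' processing notes; the counter, its strand setting and its treatment of reads shared between genes were not given in the sources at hand. Members whose exons overlap a gene on the other strand (Ccna2, Cdc25c, Plk1, Cdca8, Nusap1, Prc1, Kif20a, Cdc20, Ube2c) are therefore uncertain. The same holds for Top2a, whose exons overlap a gene on the same strand. It holds too for members with a similar copy (such as Ccnb1, Cdc20, Ndc80, Plk1, Kif2c, Kif11, Ube2c and Mad2l1). Identity over the matched part ran from 90.6% for Kif11 to 99.2% for a Ccnb1 copy. The authors also deposited FPKM values. Each library's factor there equals the median-of-ratios size factor, and for 84.2% of 10269 genes the length used was the genomic span with its introns, to within 1%. FPKM served as an alternative on the log2(FPKM + 1) and log2(FPKM + 0.1) scales, which shrink fold changes of weakly expressed genes.

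The count test was the quasi-likelihood F test of edgeR 4.0.16 under R 4.3.3, with TMM scaling, a robust fit and the filterByExpr filter (at least 10 counts, total at least 15), within tumor, within liver, and for tumor minus liver over 12 libraries. The Benjamini-Hochberg adjustment ran over all genes tested, with a threshold of 0.05. Errors of fold changes are SE. DESeq2 1.42.0 and limma 3.58.1 were alternatives. Symbols and exonic lengths came from GENCODE M21, which matched 52489 of 52636 identifiers; the other 147 held 0.00111% to 0.00643% of a library's counts. The scripts were tested on simulated counts with the same spread in every comparison. That spread was below those of the liver libraries and of the 12-library fit (biological coefficients of variation of 32.3% and 24.6%). The simulation therefore does not describe how well calls are recovered there. Libraries of the same group always differed by more than sampling noise.

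The members, the gene lists and the tests were chosen with earlier results of these data known. Described in full were, per role, the called members with the largest and smallest tumor change (largest only in groups of 3 or fewer), the uncalled tumor members, those called in liver, and the 3 largest and smallest tissue differences; from each pathway list, the 2 largest calls per direction. Plk1, Cdk1, Ndc80, other liver values and further members are given beside these to complete the 38.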

Additional observations from a re-analysis of the deposited data

Results flagged for a closer look

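Ndc80, a subunit of the microtubule-binding complex of the kinetochore, stood out because edgeR called a tissue difference of the antibody effect in a test of the difference itself. That call held in 7 of 21 alternatives. The test treated libraries from the same animals as independent, with 1 spread per gene for both tissues. The log2 fold change of Ndc80 was -1.03 in tumor and 0.51 in liver, each in the fit of its own tissue. The difference in the fit of 12 libraries, which has its own scaling, was -1.58 ± 0.37 (edgeR adjusted p = 0.0453). The liver effect by itself did not pass the test (edgeR adjusted p = 0.808). All 3 TDB tumors were below all 3 vehicle tumors, as for 23.1% of all tumor genes. All 3 TDB livers were above all 3 vehicle livers, as for 9.11% of all liver genes. The lowest TDB liver was at 1.23 CPM and the highest vehicle liver at 1.18 CPM. Vehicle liver 1, at 0.551 CPM, lay below the other vehicle livers at 1.18 and 1.14 CPM. The liver libraries held 10 to 43 counts of this gene. A transcribed pseudogene, 2700099C18Rik, matches 763 of the 2201 bases of the Ndc80 transcript at 92.7% identity. It had 317 counts over the vehicle tumors, against 1092 for Ndc80. The part of the pseudogene was not tested.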

How the results depend on the processing

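All 38 tumor fold changes were negative in all 16 tumor alternatives, and 0 members were called higher in tumor or in liver, or more positive in tumor than in liver, in any alternative. In tumor the count called lower was 18 in the fit of all 12 libraries and 34 to 38 with a library left out, and the median was -0.53 on log2(FPKM + 1) and -1.21 to -0.94 with a library left out. In liver 2 members were called lower with DESeq2, 2 in the fit of all 12 libraries, 0 with library totals and 0 to 1 with a library left out. More negative in tumor than in liver were 5 members with DESeq2, 2 on log2(FPKM + 0.1), 18 on log2(FPKM + 1), 0 with median-of-ratios and 0 with upper quartile scaling, 3 with no filter, and 0 to 2 with a library left out. Signs turned in at least 1 alternative for 17 of 38 liver fold changes and 8 of 38 tissue differences (Ccnb2, Aurka, Cenpa, Cenpe, Ect2, Cdc20, Ube2c and Pttg1). They include liver Mki67 (-0.57 to 1.67 with a library left out) and the tissue differences of Pttg1 (-0.15 with library totals, -0.09 to 0.21 with a library left out), Ccnb2 (-0.1 with library totals, -0.04 and -0.3 on FPKM plus 0.1 and 1, -0.1 to 0.53 with a library left out) and Cdc20 (-0.04 with library totals and on FPKM plus 1, -0.27 to 0.44 with a library left out). The cause was not tested.

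Library totals shifted the median of all genes to -0.15 in tumor and 0.15 in liver. The share of tumor calls that were higher was 54.7% with TMM, 41.0% with upper quartile scaling, 31.7% with library totals, 45.1% and 44.7% on FPKM plus 1 and 0.1, and 63.0% in the fit of all 12 libraries. With the replicate number as a block, 35 members were called lower in tumor, 2 in liver (Spc25 and Ect2, with Ect2 at an adjusted p of 0.02) and 1 was more negative in tumor than in liver (Kif23 at 0.0405, with Ndc80 at 0.0788), and over all genes the liver calls were 59 lower and 291 higher, against 3 and 70 without it. Same-numbered TDB and vehicle libraries of a tissue come from mice of different treatments. They correlated over 0.1 in 1 of 3 tumor pairs and 2 of 3 liver pairs. These correlations ran between 0.0115 and 0.263 in tumor and between -0.058 and 0.462 in liver. In each tissue 3 of 6 libraries correlated best with their own number, out of 3 numbers to match. Between tumor and liver, same-numbered TDB libraries correlated at 0.0169, 0.0147 and 0.0965. The same-numbered vehicle libraries correlated at -0.0172, -0.0389 and 0.0779 between tissues. What a shared number stands for is not in the labels, and so few pairs cannot settle it. The liver libraries had 4 to 399 counts per member and a biological coefficient of variation of 32.3% over all genes tested, against 13% in tumor, and of all 13657 liver genes 3 were called lower and 70 higher.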
